A study of Caenorhabditis elegans with 2 samples.

Results

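The small RNA and RNA interference pathway genes of Caenorhabditis elegans were examined for binding of ZTF-25, a zinc finger protein. The set holds 43 listed Argonaute, RNA-dependent RNA polymerase, nuclear RNAi, mutator and piRNA pathway genes, and 42 of them were found by symbol among 19973 protein-coding genes of the Ensembl release 115 annotation. The gene listed as cde-1 was not matched and was not scored. Each gene was scored by the peak summits in its promoter window, defined around every annotated 5′ end of the gene as the 1000 bp before it and the 500 bp after it. Binding was measured by chromatin immunoprecipitation and sequencing (ChIP-seq) in strain RW12287, in which CRISPR had placed a TY1, EGFP and 3xFLAG tag at the ztf-25 locus (allele st12287). The antibody recognised GFP. The 2 biological replicates of 1 group, ztf-25-eGFP young adult, were whole worms of 63 hours that had been bleached and starved as first-stage larvae. Chromatin was sonicated to a size range of 200 to 800 bp. There was no second genotype or condition, so binding is described within 1 group, and peaks of whole worms do not tell tissues apart.

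Small RNA pathways use short guide RNAs held by Argonaute proteins to silence genes of matching sequence. In C. elegans, primary guides come from double-stranded RNA cut by Dicer, from microRNA genes or from piRNA genes. For guides other than microRNAs, RNA-dependent RNA polymerases then copy the target into many secondary guides. Mutator proteins collect this amplification machinery in germ granules, and nuclear Argonautes with the NRDE proteins silence transcription of the target, in part across generations.

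The deposited peak lists, on the ce11 assembly, came in 2 kinds. The conservative list of 1092 peaks, the combined list of 1368 peaks, and the lists of 515 peaks for replicate 1 and 295 peaks for replicate 2 were thresholded. The irreproducible discovery rate (IDR), which is low where 2 peak calls rank a peak alike, reached at most 0.01 in the thresholded lists. Ranked lists held many more peaks, 104189 of them in the comparison of the libraries, most of them above that IDR. Signal values are those of the authors' peak calling, and their scale is not stated. Across the conservative list the median signal was 93.9, and across the ranked list of the libraries it was 26.3. Read depth is unknown, because the lists hold no read counts.

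The strongest summit at any of the 42 genes lay upstream of nrde-2, which encodes a nuclear RNAi factor that acts on transcripts as they are being made. Its sequence is shown with those of 3 other summits upstream of pathway genes, as examples of the sequence under a strong and under weaker summits. They are not the 4 highest summits of the pathway. Sequences are from the RefSeq genome of WBcel235, the assembly also called ce11, read 5′ to 3′ on the strand of the named gene, with the 21 bases centred on the summit in capitals. The nrde-2 sequence is the whole peak of 276 bp, chrII:10248426-10248701 on the minus strand. The others are 101 bp around the summit and lie on the plus strand, at chrV:15002310-15002410 for mut-15, chrV:13665104-13665204 for rde-12 and chrII:12919236-12919336 for wago-4.
nrde-2: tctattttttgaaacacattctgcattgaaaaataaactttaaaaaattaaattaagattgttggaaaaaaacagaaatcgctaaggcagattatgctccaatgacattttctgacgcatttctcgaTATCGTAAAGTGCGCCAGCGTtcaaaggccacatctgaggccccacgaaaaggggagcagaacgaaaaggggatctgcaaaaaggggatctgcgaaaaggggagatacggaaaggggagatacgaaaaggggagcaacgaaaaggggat
mut-15: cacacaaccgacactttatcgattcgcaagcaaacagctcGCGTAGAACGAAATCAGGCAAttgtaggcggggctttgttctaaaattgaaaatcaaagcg
rde-12: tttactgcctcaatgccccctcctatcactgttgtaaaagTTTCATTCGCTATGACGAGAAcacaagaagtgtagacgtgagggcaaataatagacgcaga
wago-4: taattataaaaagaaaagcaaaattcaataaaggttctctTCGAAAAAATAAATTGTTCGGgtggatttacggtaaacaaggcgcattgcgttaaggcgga

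Only nrde-2 had a summit in its window in all 4 thresholded lists. The peak had a signal of 227.1 in both the conservative and the combined list, ranked 29 of 1092 in the conservative list, and lay above 97.3% of that list. In the list of replicate 1 its signal was 117.8, which ranked 47 of 515, and in the list of replicate 2 it was 106.5, which ranked 23 of 295. Both single libraries therefore held the peak near the top of their own list. The IDR was 4e-05 in the ranked comparison of the libraries and 4.09e-05 in the combined ranked list. The single-library summits lay 12 bp and 9 bp from the pooled summit, in replicate 1 and replicate 2.

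The position of that peak left its gene assignment shared. The nrde-2 gene (WBGene00011333) runs on the minus strand from 10242596 to 10247638 of chromosome II, and the summit at 10248564 lay 926 bp upstream of its 5′ end. The nearest protein-coding 5′ end was that of atad-3, at 427 bp, a gene for a mitochondrial membrane ATPase that is transcribed in the other direction. The summit was intergenic, with no noncoding gene of any kind within 200 bp. The printed peak sequence ends in a run of repeats. The 8-letter word AAAAGGGG, chosen after the sequence was seen, occurred 6 times in it, always on the minus strand of the genome and between 10248428 and 10248527, to one side of the summit. Among all 1092 conservative peaks, 50 (4.58%) held at least 1 copy on either strand, and 8 others held as many copies as nrde-2, at signals of 74.0 to 186.4. None of those 8 had a small noncoding RNA gene within 200 bp. Of the best ranked peaks of the pathway genes 1 of 39 held the word, against 1.28% of those of all genes. That 1 was the nrde-2 peak itself, from which the word was taken, so the hit was fixed by the choice of word.

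Beyond nrde-2, the thresholded lists placed a summit in the window of 2 further pathway genes, each in a single list. The conservative list held ego-1 and nrde-2, which is 2 of 42 genes (4.76%), beside 2.82% of all protein-coding genes. In the combined list the genes were mut-15 and nrde-2, again 2 of 42 (4.76%), beside 3.64% of all genes. The replicate 1 list held nrde-2 alone (2.38%, against 1.40% of all genes), as did the replicate 2 list (2.38%, against 0.861%). With counts of 1 or 2 genes these shares do not set the pathway apart from the genome. The remaining 39 of the 42 genes had no summit in their window in any thresholded list. Most genes had none either, since no single list held a summit for more than 3.64% of all genes.

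The ego-1 gene encodes an RNA-dependent RNA polymerase of the germ line that makes secondary guides. It runs on the minus strand of chromosome I from 7650341 to 7656338 (WBGene00001214), and its conservative peak had an intergenic summit 471 bp upstream, with the 5′ end of ego-1 as the nearest. The signal was 85.4, which ranked 718 of 1092. Of the 2 libraries, replicate 1 had a ranked summit at the site with a signal of 72.3 and an IDR of 0.811 in its own list, and replicate 2 had none within 150 bp. The highest replicate 2 summit in the window had a signal of 34.7 and lay 955 bp away. The comparison of the libraries nevertheless paired 2 calls at this peak, with signals of 72.3 and 30.4 in columns that do not name a replicate. At the nrde-2 and mut-15 peaks the first of these columns held the replicate 1 value and the second the replicate 2 value. The site thus entered the conservative list at an IDR of 0.006 in the comparison of the libraries, while its IDR of 0.0614 in the combined ranked list kept it out of the combined list.

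The mut-15 gene encodes a component of the mutator complex. Its peak was in the combined list, at a signal of 72.1 that ranked 1169 of 1368, and not in the conservative list. The IDR was 0.00572 in the combined ranked list and 0.0326 in the comparison of the libraries. At the site, replicate 1 had a signal of 44.1 and replicate 2 a signal of 25.5, so both libraries held a ranked summit there. The IDR in their own lists was 0.0598 in replicate 1 and 0.791 in replicate 2, and neither thresholded replicate list held the peak. Within its own list, the replicate 1 signal lay above that of 96.3% of all genes and the replicate 2 signal above that of 83.1%. The summit, whose surroundings are printed above, lay 183 bp upstream of mut-15 (WBGene00011323), which starts at 15002543 on chromosome V. A nearer 5′ end, at 137 bp on the other strand, belonged to fib-1, the gene for fibrillarin, a ribosomal RNA methyltransferase.

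In the ranked list, ranked signals at the 42 pathway genes, nrde-2, ego-1 and mut-15 included, were spread around a moderate level. A ranked summit of any IDR lay in the window of 39 of 42 genes (92.9%), beside 82.8% of all genes. The median highest signal was 44.8 over the 42 genes (quartiles 35.2 and 52.5) and 32.6 over all genes (quartiles 19.1 and 44.8), with a gene without a summit counted as 0. Of the 42 genes, 34 lay above the median of all genes, 21 above its upper quartile and 5 below its lower quartile. At an IDR of 0.1 or lower, 9 of 42 genes (21.4%) had a summit, beside 10.8% of all genes. The 9 were alg-2, csr-1, ego-1, hrde-1, mut-15, mut-7, nrde-2, rrf-1 and wago-4. Genes that carry a symbol, 10896 in all, had a median signal of 34.0 and reached that IDR in 12.5% of cases. Promoter windows had the same median length, 1501 bp, in the pathway and in all genes. That is the length around a single 5′ end, which 24 of 42 pathway genes had, so equal medians do not show that the windows match. Windows of genes with more 5′ ends were longer, up to 6004 bp at ergo-1. The genes themselves were longer in the pathway, with a median of 4270 bp against 2027 bp. The part of gene length and of window length in these levels was not tested.

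**Figure D1:**
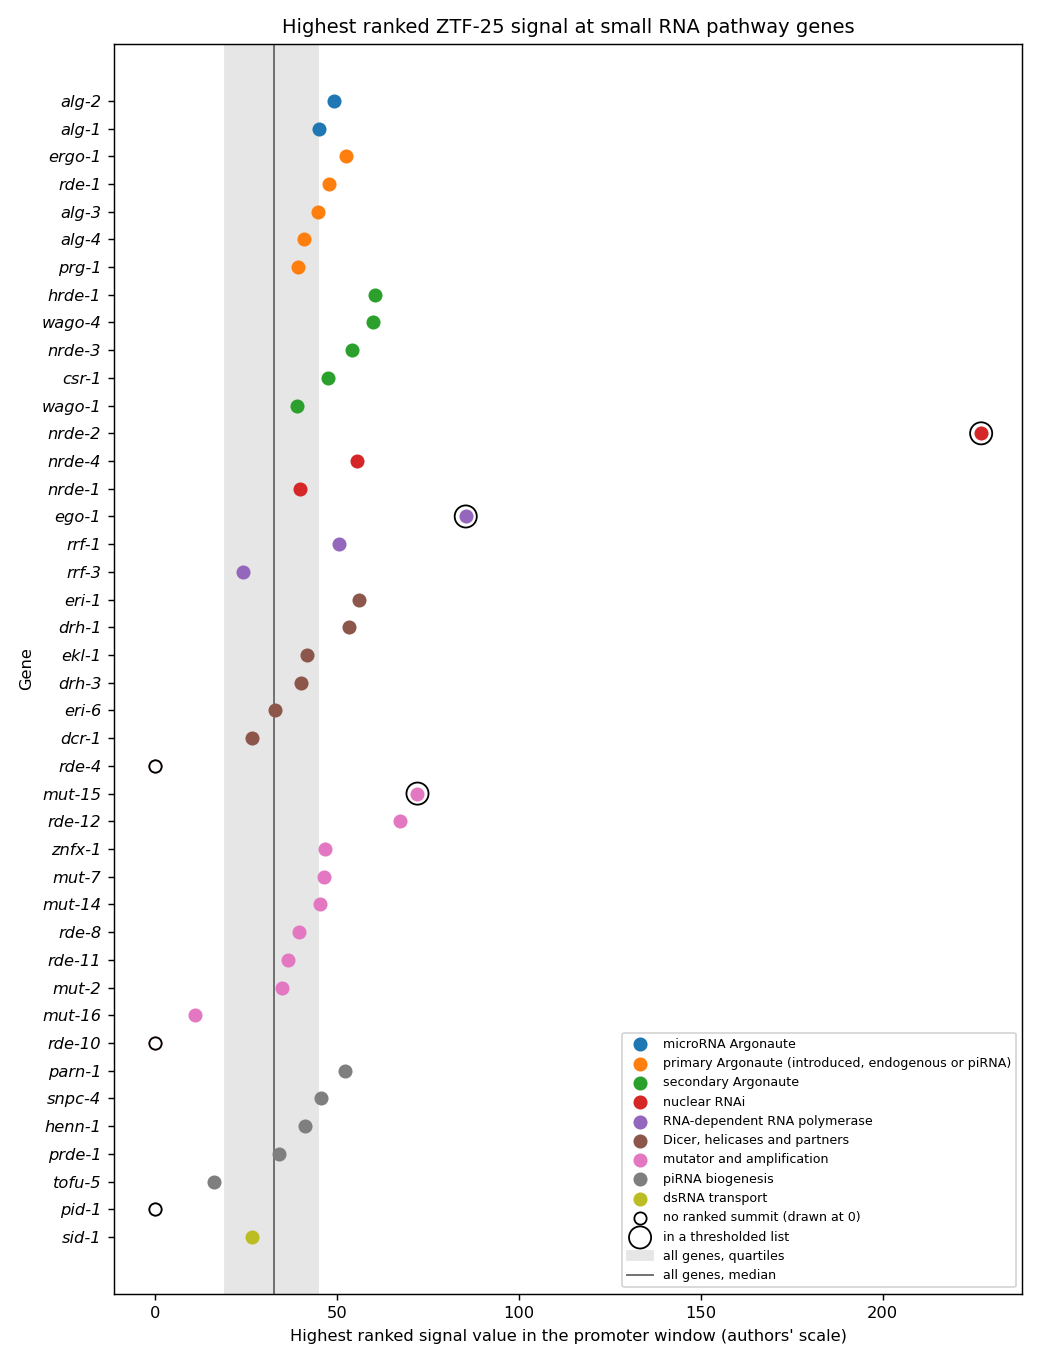
Highest ranked signal value in the promoter window of each of the 42 genes, grouped by role, on the authors' scale (x axis). Large rings mark the 3 genes with a summit in a thresholded list, small open circles at 0 the 3 genes without a ranked summit, and the grey band and line the quartiles and median of all genes (19.1, 44.8 and 32.6); nrde-2 at 227.1 lies far right of every other gene.

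In the plot by gene and role, most points fall in or just right of the grey band, and 1 point stands apart. The cumulative curves show the same values against the whole genome. The pathway curve lies below the curve of all genes at every signal short of 227.1, the value of nrde-2, and the curves come close from 85.4, the value of ego-1, upwards.

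**Figure D2:**
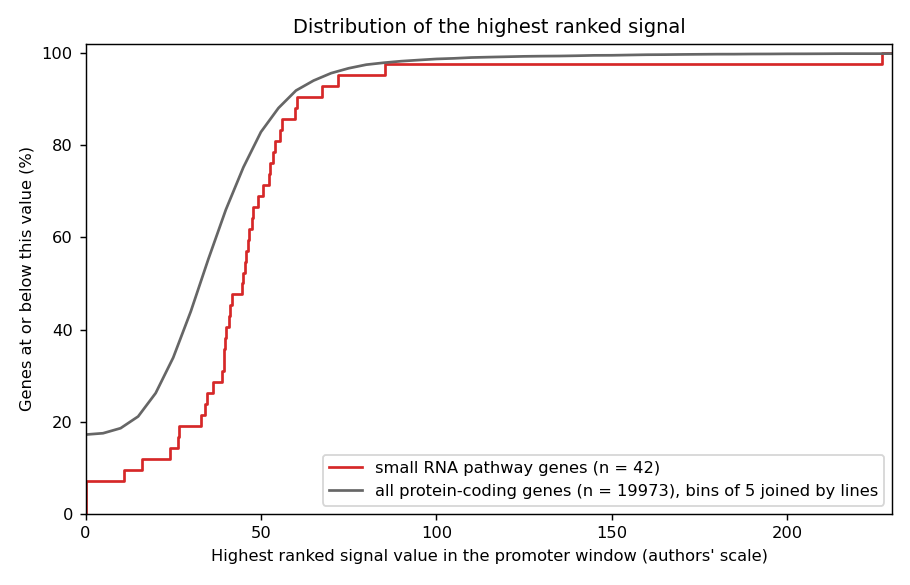
Percentage of genes at or below a given highest ranked signal value, for the 42 small RNA pathway genes (red steps) and all 19973 protein-coding genes (grey line), with genes without a summit at 0. The red curve crosses its median at 44.8 and the grey curve at 32.6.

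The Argonautes of this set, the guide-binding proteins, kept to a narrow range. Across 8 other Argonautes, part of a further list described below, the median was 34.5 and the highest value 54.3. The microRNA Argonautes alg-1 and alg-2 had highest signals of 44.9 and 49.2. For the 5 Argonautes of primary guides the range was 39.3 to 52.6, from prg-1, the Piwi protein, to ergo-1, which binds endogenous guides. Between them lay rde-1, the Argonaute of introduced double-stranded RNA, at 47.6, and alg-3 and alg-4, which act in sperm formation, at 44.7 and 40.8. The 5 Argonautes of secondary guides in this set had a median of 54.1 and a range of 39.0 to 60.4. The median was 44.7 for the 5 of primary guides.

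Of the 5 Argonautes of secondary guides in this set, hrde-1 and wago-4 led. HRDE-1 is the germline nuclear Argonaute of inherited silencing, and its highest signal was 60.4, at a summit 410 bp downstream of the 5′ end with an IDR of 0.0619. Replicate 1 had 27.3 at that site, above 75.9% of all genes in its list, and replicate 2 had 33.0, above 94.2% in its own. WAGO-4, a cytoplasmic Argonaute of inherited silencing, had 59.8 at the summit printed above, 265 bp upstream, with an IDR of 0.0943. There replicate 1 had 38.0 and replicate 2 had no summit within 150 bp in its own ranked list. The comparison of the libraries paired calls of 38.0 and 21.6 at this peak. The somatic nuclear Argonaute nrde-3 had 54.1, csr-1, which protects germline transcripts, had 47.5, and wago-1 had 39.0.

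The nuclear RNAi factors held both the highest gene and an ordinary one. Beside nrde-2 at 227.1, nrde-4 had 55.4, 299 bp upstream, and nrde-1 had 39.7. At the nrde-4 site replicate 2 had 39.8 and replicate 1 had no summit within 150 bp in its own ranked list. The comparison of the libraries paired calls of 14.8 and 39.8 there, at an IDR of 0.526. Of the RNA-dependent RNA polymerases, rrf-1 had 50.5 with an IDR of 0.0608, whereas rrf-3, which makes primary endogenous guides, had 24.2, below the median of all genes.

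Dicer itself, dcr-1, had only 26.5, at a summit 824 bp upstream that was nearer to apc-2. Among its helicases and partners, the exonuclease eri-1 had the highest signal, 55.9, 47 bp downstream of a 5′ end with an IDR of 0.128. Replicate 1 had 34.4 at that site and replicate 2 had 20.7. The helicases drh-1, drh-3 and eri-6 had 53.3, 40.0 and 33.0, and ekl-1, a Tudor domain protein of secondary guide synthesis, had 41.9. The double-stranded RNA binding protein of the Dicer complex, rde-4, had no ranked summit in its window, in the pooled list or in either replicate.

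Among 10 mutator and amplification genes the range ran from no summit to the 72.1 of mut-15. The DEAD-box helicase gene rde-12 came next at 67.4, the highest value of any pathway gene outside the thresholded lists, 235 bp upstream with an IDR of 0.119. At that site replicate 1 had 42.8 and replicate 2 had 20.2. The exonuclease mut-7, the helicases mut-14 and znfx-1, and the endonuclease rde-8 had 46.3, 45.4, 46.5 and 39.4. The nucleotidyltransferase mut-2 had 34.8 and rde-11 had 36.4. At the low end, mut-16, the scaffold of the mutator foci, had 11.0 with no summit in the ranked list of either replicate. The comparison of the libraries paired calls of 10.4 and 6.36 there. The rde-10 gene had no summit in the pooled list but 28.5 in replicate 2.

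The 6 piRNA biogenesis genes had a median of 37.6. The trimming exonuclease parn-1 had 52.2, snpc-4, a subunit of the complex that starts small RNA transcription, had 45.7, and the methyltransferase henn-1 had 41.1. The piRNA transcription factors prde-1 and tofu-5 had 34.0 and 16.2, and pid-1 had no ranked summit at all. The channel for double-stranded RNA, sid-1, had 26.7. The 3 genes without a summit in the pooled list, rde-4, rde-10 and pid-1, thus came from 3 different roles.

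The 2 replicates overlapped at most of the sites, while their highest signals per gene were only loosely related. A ranked summit lay within 150 bp of the best pooled summit in replicate 1 for 31 of 39 genes (60.7% of all genes with a pooled summit), in replicate 2 for 28 of 39 (58.4%) and in both for 24 of 39 (38.7%). The replicate 1 signal was the larger number at 19 of those 24 sites (79.2%), and at 66.6% of 6408 such sites of all genes, so it ran higher across the genome. The lists may differ in scale, and values of the 2 replicates are therefore set side by side without reading a difference at a single site. The median highest signal in replicate 1 was 26.6 over the pathway genes and 18.6 over all genes, and in replicate 2 it was 22.0 over the pathway genes and 15.2 over all genes. Across genes with a ranked summit in the window in both replicates, Spearman's rho of the replicates' highest signals was 0.29 over 32 pathway genes and 0.35 over 9554 genes, a description across genes that share the same libraries. These signals could come from different summits of a gene. Both lay within 150 bp of the best pooled summit for 16 of the 32 genes (45.1% of all genes). No correlation was computed over the 24 shared sites.

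**Figure D3:**
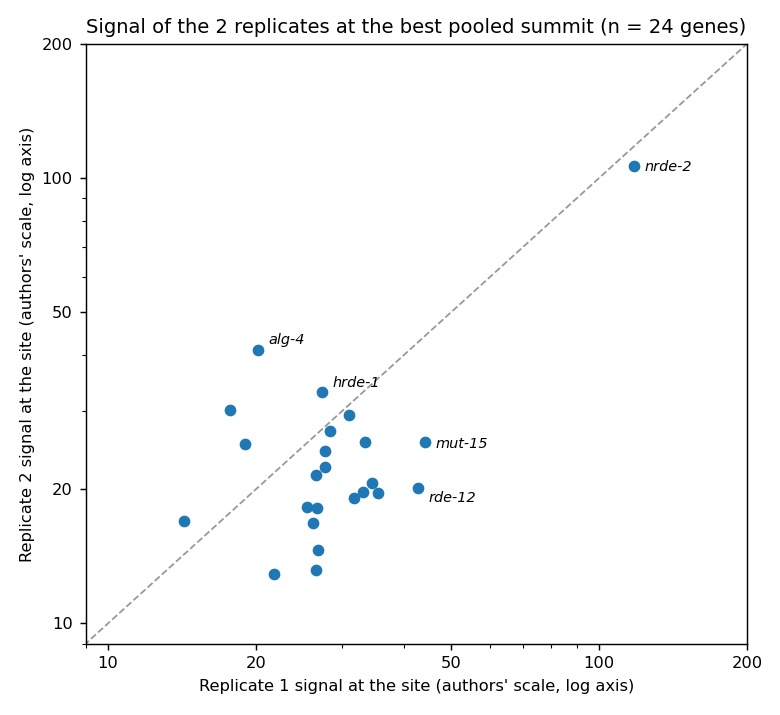
Signal of replicate 1 (x axis) and replicate 2 (y axis), both on log axes of the authors' scale, at the best pooled summit of the 24 genes with a ranked summit of both replicates within 150 bp. The dashed line marks equal numbers, 19 points lie below it (66.6% of such sites of all genes do), and nrde-2 at 117.8 and 106.5 is far from the other 23 points.

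In the plot of replicate signals the points other than nrde-2 form 1 cloud without a clear order. At alg-4, the replicate 1 signal of 20.2 lay above that of 54.5% of all genes in its list and the replicate 2 signal of 41.1 above that of 97.8% in its own.

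The best ranked summits often fell in ground shared with a neighbouring gene. In 19 of 39 pathway genes the summit also lay in the window of another protein-coding gene (24.6% of all genes), and in 28 of 39 the own 5′ end was the nearest (85.6% of all genes). Upstream positions were taken in 24 of 39 (62.3% of all genes), at a median distance of 305 bp from the 5′ end in the pathway and 332 bp in all genes. For 11 genes another gene was nearer, among them dcr-1, mut-7, nrde-2 and sid-1. None of the 39 best summits had a transfer RNA, small nucleolar, small nuclear or ribosomal RNA gene within 200 bp, which was so for 1.5% of the best summits of all genes.

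**Figure D4:**
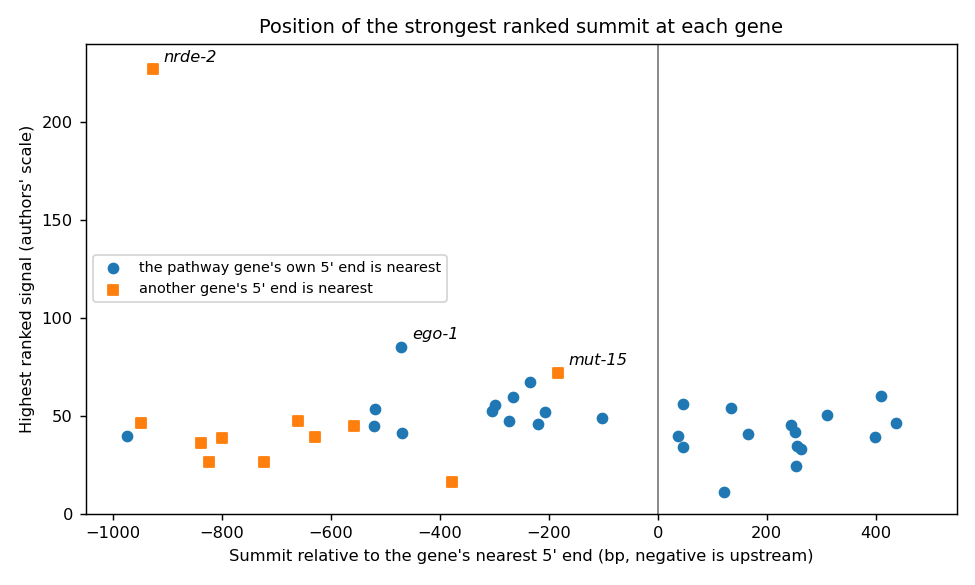
Position of the best ranked summit relative to the nearest annotated 5′ end of the gene (x axis, bp, negative upstream) and its signal (y axis, authors' scale) for 39 genes. Circles are genes whose own 5′ end is nearest to the summit and squares the 11 genes with a nearer neighbour; nrde-2 at -926 bp and mut-15 at -183 bp are squares, ego-1 at -471 bp is a circle.

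The plot of summit positions shows the squares only upstream, most of them more than 500 bp from the 5′ end. With the narrower window of 500 bp upstream to 100 bp downstream, ego-1 alone of the 42 genes held a conservative summit, beside 1.68% of all genes.

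Sequence around the summits was compared with words searched on both strands in 101 bp. The word GGTTCGA, which lies in the internal promoter of many transfer RNA genes, was in 0 of 39 summit windows of pathway genes, in 16.4% of those of the conservative list (10.9% of the 466 in promoter windows) and in 1.28% of those around the best ranked summits of all genes. For GTGGTTA the same values were 0 of 39, 8.52% (5.15%) and 0.786%. The word AACCACT was in 0 of 39, 9.52% (6.22%) and 1.25%. For TCGGCCA they were 0 of 39, 7.42% (6.87%) and 1.44%. No match says only that these letters are not in these windows. Median GC content was 39.6% around the 39 summits, 40.6% around the best summits of all genes and 49.5% around 466 conservative peaks in promoter windows. The value was 49.5% at nrde-2, 44.6% at mut-15 and 38.6% at ego-1.

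Thresholded peaks were more frequent when the whole gene and 2 kb on either side were counted. A conservative summit lay there for 7 of 42 pathway genes (16.7%), beside 7.94% of all genes, and a combined summit for 9 of 42 (21.4%), beside 9.87%. The median gene in the pathway was the longer, as given above, and the part of length in these shares was not tested. The 7 genes were ego-1, ekl-1, hrde-1, nrde-2, prde-1, rde-10 and znfx-1, and the combined list added mut-15 and wago-4. Several of these peaks lay at other genes. In the combined list ego-1 was counted through another peak than in the conservative one, with a signal of 45.5, 1835 bp upstream and in a coding exon of F26A3.4. The peak 834 bp downstream of prde-1 (signal 92.2) and the peak 1790 bp upstream of znfx-1 (84.5) each lay on a transfer RNA gene, and that near rde-10 (90.7) was 1426 bp downstream, in an intron of Y47G6A.21.

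A different position recurred at 3 genes, the very end of the transcript. Summits in the last 50 bp of the gene, a class chosen after the positions were seen, occurred at ekl-1 and hrde-1 in the conservative list, 2 of 42 genes, beside 18 of 19973 genes (0.0901%). In the combined list they occurred at ekl-1, hrde-1 and wago-4, beside 22 genes (0.110%). Each summit lay in the annotated 3′ UTR of the named gene, with no noncoding gene within 200 bp. The ekl-1 summit was 5 bp from the 3′ end, with a signal of 77.0, 47.4 in replicate 1 and 33.0 in replicate 2. At hrde-1 the summit was 42 bp from the end, with a signal of 78.4, 45.3 in replicate 1 and 39.2 in replicate 2. The wago-4 summit was 30 bp from the end, with a signal of 69.7, 42.6 in replicate 1 and 31.6 in replicate 2. Both replicates thus held each of these summits. A second conservative peak lay 1155 bp downstream of hrde-1, between genes, with a signal of 77.9. The nearest 5′ end to its summit was that of C16C10.4, at 154 bp.

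A further list of 90 other genes of small RNA pathways, of which 80 were found in the annotation, was scored in the same way. A conservative summit lay in the window of 4 of 80 (5%), again beside 2.82% of all genes. A ranked summit at an IDR of 0.1 or lower lay there in 19 of 80 (23.8%). That share was 10.8% over all genes and 12.5% over genes with a symbol. The median highest ranked signal was 44.2, against 32.6 over all genes. The 4 genes were vig-1, nhl-2 and xrn-2 of the microRNA pathway and pgl-1 of the germ granules. VIG-1, a component of the microRNA effector complex, had a summit 401 bp upstream, between protein-coding genes and 97 bp from the piRNA gene 21ur-13751. Its signal was 109.4 in the conservative list, 57.8 in replicate 1 and 53.5 in replicate 2. The vig-1 gene was the only one of the 80 in all 4 thresholded lists. For nhl-2, a microRNA cofactor, the signal was 105.2 at 855 bp upstream, nearer to tag-340 and inside the noncoding RNA gene F26F4.14. The nuclear exonuclease xrn-2 had 85.6, and pgl-1, which encodes a constitutive germ granule protein, had 77.6 at a summit also in the window of him-3. Both of these summits lay in coding exons. The combined list added adr-1, an RNA editing factor named after its values were seen, with a signal of 76.2 and 59.9 in the replicate 1 list. That made 5 of 80 (6.25%), beside 3.64% of all genes. In the comparison of the libraries the adr-1 peak had an IDR of 0.571, with paired calls of 59.9 and 11.2. Its summit lay 704 bp upstream of adr-1 and nearer to nsf-1, at 481 bp.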

How the data were processed

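ZTF-25 ChIP-seq peak lists of 2 biological replicates were analysed. The authors deposited 8 lists on ce11, of which 4 were ranked and 4 thresholded. Per the README texts in the deposit, alignments and a control file, not analysed here, went into them. Which aligner and peak caller were used, and how duplicates were handled, is not given in the sources used here. The signal value per peak and the summit offset from the peak start, a position in bp, are as the authors deposited them. The deposited ranked lists also hold the −log10 of the IDR, which was turned back into an IDR. Every thresholded peak was found in its matching ranked list. The 2 unlabelled signal columns of the ranked comparison were given no replicate number, and single-library values came from the lists of each replicate.

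Genes came from Ensembl release 115 (WBcel235) and sequences from RefSeq, on the 6 nuclear chromosomes. Summits are 1-based. A summit was assigned to each gene whose window held it, and the window search was checked on simulated data. Python 3.11.15, pandas 2.3.3, numpy 2.4.6 and matplotlib 3.10.9 were used. Signals were ranked within 1 list, and values of the 2 replicates, whose lists may differ in scale, are set side by side. No test across conditions was possible with 1 group. The counts and medians describe these lists. The members and gene lists were chosen with earlier results of these data known. All 42 genes found are accounted for: values are given in full for genes with a thresholded summit, then for the 5 highest and 3 lowest others by ranked signal, and other pathway genes are named where the conservative list held them. Alternatives were other lists, each replicate alone, IDR limits of 0.001 and 0.1, other windows, overlap by 1 bp, the nearest gene only and the removal of peaks near small noncoding RNA genes.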

Additional observations from a re-analysis of the deposited data

How the results depend on the processing

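Over the alternatives, the count of pathway genes with a summit in their window (2) moved to 1 at an IDR of 0.001 (0.871% of all genes) and to 9 at 0.1 (10.8%). It was 1, ego-1, with the window of 500 bp upstream to 100 bp downstream (1.68%) and with the nearest gene only (2.15%), 3 with 2000 bp upstream (3.96%), which added znfx-1, and 1 to 1 with either replicate alone, which held nrde-2. For the other pathway genes the count (4) was 1 at an IDR of 0.001, 19 at 0.1, 2 in the 500 bp window, 7 with 2000 bp upstream and 1 to 2 with single replicates, beside the same shares of all genes (0.861% for replicate 2 and 1.40% for replicate 1 alone). The median highest signal (44.8, against 32.6 over all genes) was 28.0 in the 500 bp window (16.7 over all genes). With 2000 bp upstream it was 45.7, against 38.3 over all genes, so the values lay closer together. It was 40.9 with the outermost 5′ end only (31.0 over all genes), an alternative chosen after seeing the data, and 22.0 to 26.6 with single replicates. The median position of the thresholded summits, over 2 genes, was -698.5 bp in the conservative list and -554.5 bp in the combined list. The combined list, overlap by 1 bp, and removal of peaks near small noncoding RNA genes each left the count of pathway genes at 2, although the combined list held mut-15 in place of ego-1. No paired analysis was possible because there was 1 group. Read depth is unknown, so a missing summit does not show absence of binding, and a summit shared by facing promoters cannot be given to either gene.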
